A study of Homo sapiens with 2 samples.

Results

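The Flag-ETV4 peaks at the genes of YAP, TAZ, the TEAD factors and their classical targets were examined in A549 cells. The 10 genes were listed by name, 6 factors (YAP1, WWTR1, TEAD1, TEAD2, TEAD3 and TEAD4) and 4 target genes (CCN1, CCN2, ANKRD1 and AMOTL2), out of 19970 protein-coding RefSeq genes on the chromosomes of the peak list. Every peak whose interval lay within 20 kb of the span of a gene was taken, which gave 53 of the 54389 peaks. The data were 1 anti-Flag ChIP-seq library from A549, a human lung adenocarcinoma line. The cells carried an shRNA against ETV4 and were transfected with Flag-tagged ETV4, so the peaks show the tagged, re-expressed protein and not the endogenous one. The control was 1 input library, labelled as A549 without antibody, whose own signal was not analysed here. The sample label gives the Flag antibody as a Sigma product and the methods as a CST product. There was no replicate and no second condition, so all values are descriptions of 1 library without SD or test.

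YAP1 encodes YAP and WWTR1 encodes TAZ, a pair of transcriptional co-activators without a DNA-binding domain of their own. They act through the TEAD proteins TEAD1 to TEAD4, which bind DNA at sites with the letters GGAATG, and they are held in check by the kinases of the Hippo pathway, which retain them in the cytoplasm. ETV4 is a member of the PEA3 group of ETS factors, which recognise a GGAA core, so the TEAD site contains the ETS core letters. CCN1 and CCN2 encode secreted matricellular proteins, ANKRD1 a nuclear and sarcomeric ankyrin repeat protein, and AMOTL2 an angiomotin-like protein of cell junctions that binds YAP. All 4 are widely used readouts of YAP and TAZ activity.

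All 10 genes had at least 1 peak within 20 kb, as did 86.3% of all protein-coding genes, so this count is close to the background. A peak with a fold enrichment over 10 lay within 20 kb of all 10 genes and of 72.5% of protein-coding genes. At the gene start the background was lower. All 10 genes had a peak within 1 kb of a start, against 62.6% of protein-coding genes, and for 8 of the 10, all but WWTR1 and ANKRD1, that peak had a fold over 10, against 45.6%. The fold is the enrichment at the summit over the control, given by the authors' peak caller. A start is one listed in the RefSeq promoter table used here, which held for 7 of the genes and does not cover every transcript. For TEAD1, TEAD4 and CCN1 both ends of the gene were taken, and the end with the lower coordinate is called the low end.

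**Figure D1:**
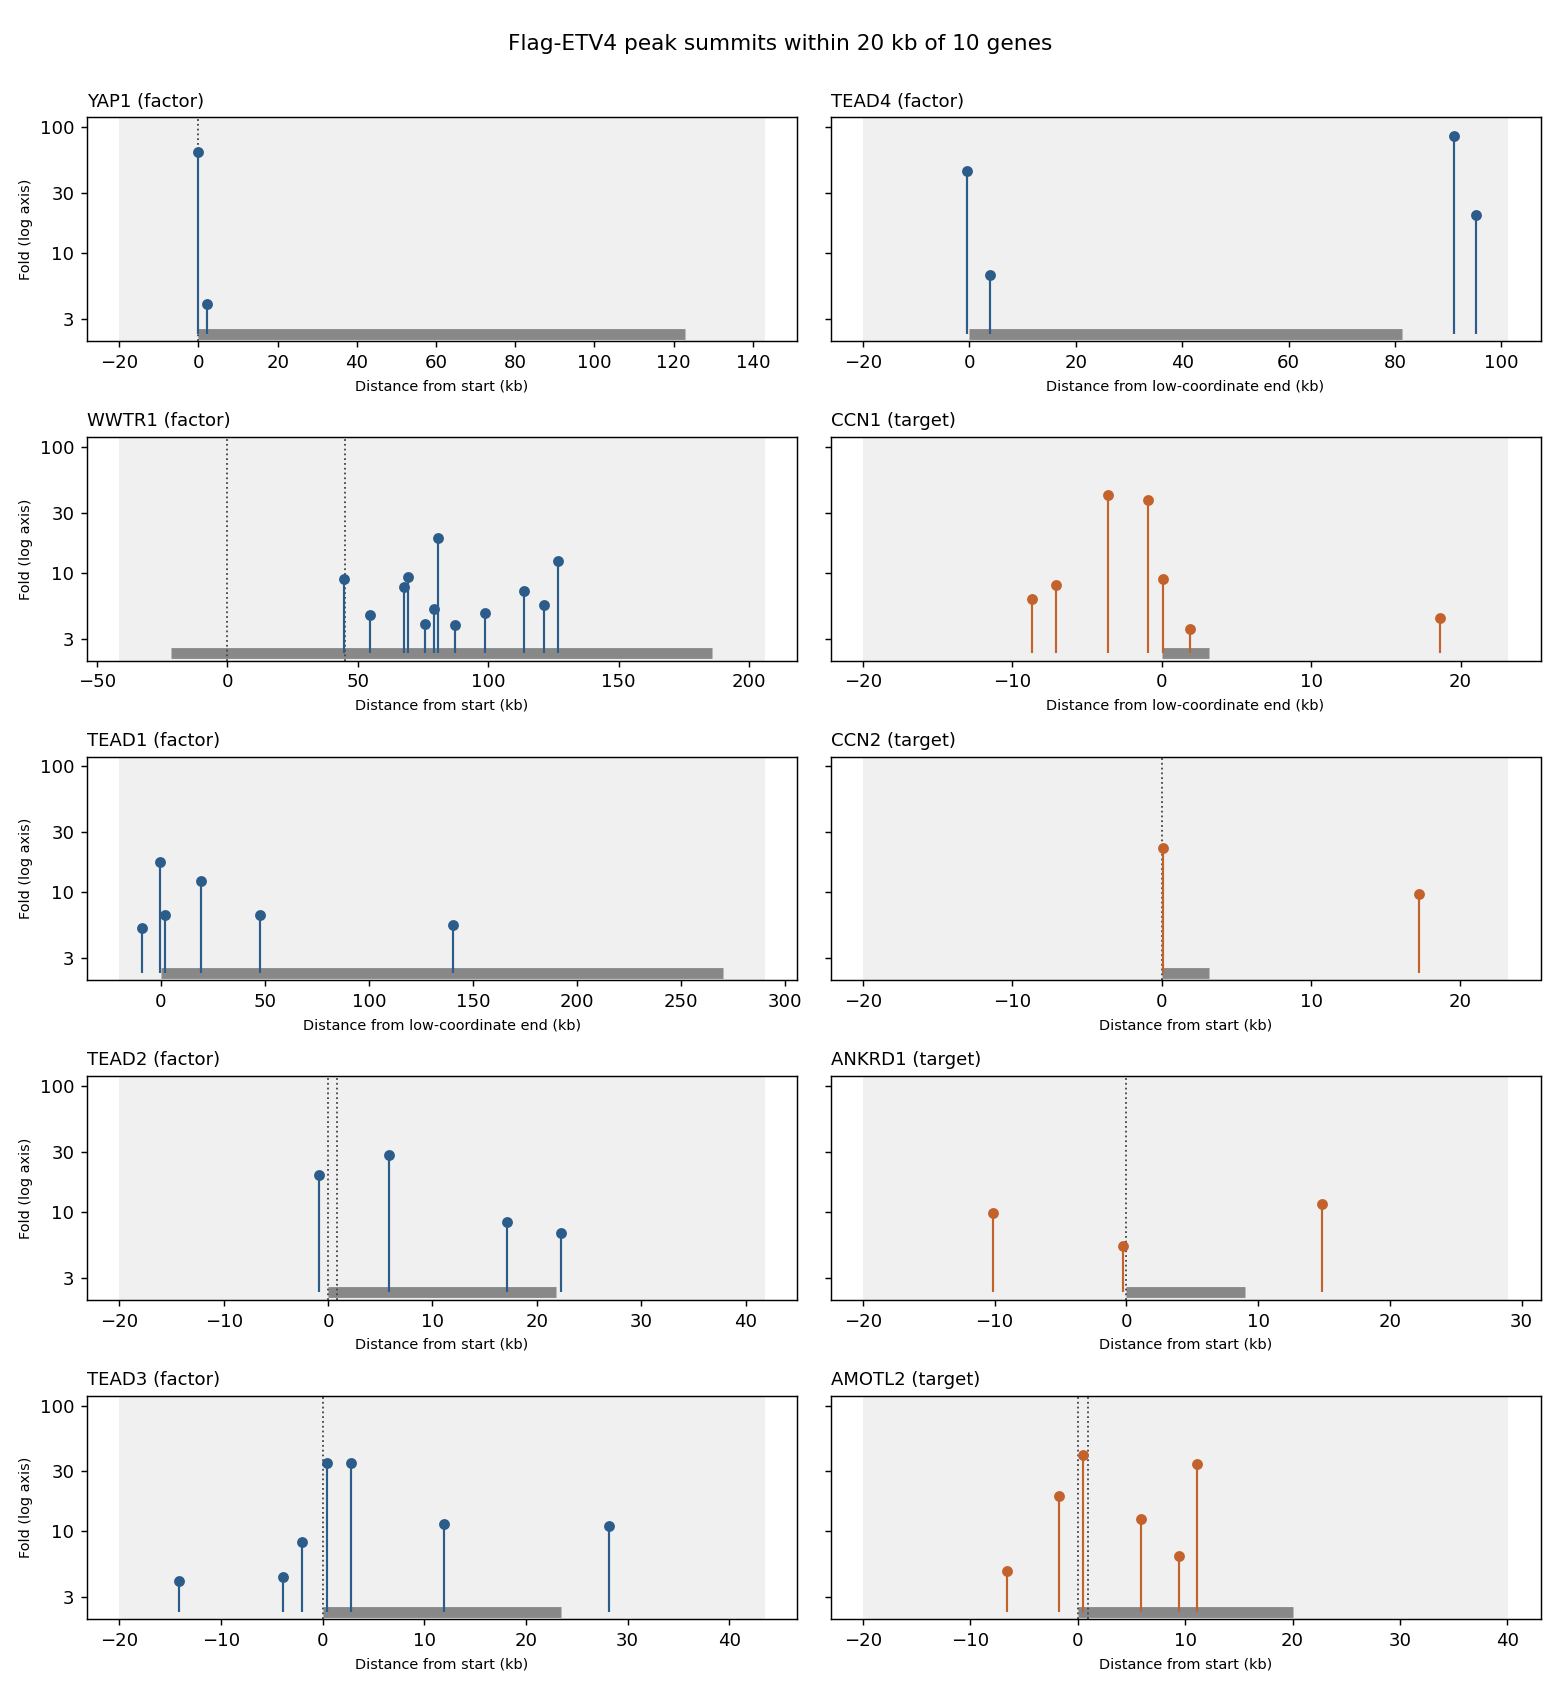
Each panel shows 1 gene, with the distance from its outermost listed start (or, for TEAD1, TEAD4 and CCN1, from its low end) in kb on the x axis and the fold of each peak at its summit on a log y axis. Grey bars are gene spans, light grey the 20 kb windows, dotted lines listed starts, blue factors and orange targets. YAP1 had 1 peak over its start, a weak one 2151 bp downstream and none over the remaining 120.7 kb of the gene. The 12 peaks of WWTR1 lay inside the gene.

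Among the factors, the co-activator gene YAP1 had the peak of highest fold at a start. The peak, chr11:102109856-102112247 on hg38, was 2392 bp wide and had a fold of 64.0 and a −log10 q of 299.6. Its summit lay 73 bp upstream of the start and 83 bp from an end of the divergent lncRNA gene YAP1-DT. The summit pileup, which is the number of fragments stacked there, was 194 (exact Poisson 95% confidence interval 168 to 223) over a control level of 2.05. A second, weak peak of 246 bp lay 2151 bp downstream of the start, with a fold of 3.94 and a pileup of 11 (5.49 to 19.7). No other peak was called in the rest of the 123 kb gene, and the next one outside the window was 83.9 kb away. In all, YAP1 had 2 peaks in a window of 163 kb, at the lower edge of the 25th to 75th percentile of 2 to 5 in protein-coding genes of similar window length.

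WWTR1 showed the reverse arrangement. It had 12 peaks, all of them inside the gene, against a median of 5 and a 25th to 75th percentile of 2 to 8 in the tenth of protein-coding genes with the longest windows. Their folds ran from 3.83 to 19.0 with a median of 6.31, and their pileups from 8 to 70. For WWTR1, 2 starts were listed, and its span ran 21.5 kb past the outer one to a 5′ end that was not among them. The inner start was covered by a peak of 2360 bp (chr3:149656787-149659146) with a fold of only 8.92 and a −log10 q of 19.8. Its summit was 390 bp upstream of that start and 205 bp from an end of WWTR1-AS1. The outer start had no peak within 1 kb, since the nearest summit was 44858 bp away, and the 65.6 kb of the gene beyond the peak at the inner start, with both the outer start and the 5′ end of the span, held no other peak. The strongest peak of WWTR1 lay deep in the gene, 35474 bp downstream of the inner start (chr3:149622265-149622802), with a fold of 19.0 and a pileup of 70 (54.6 to 88.4). Exons and introns were not used here, so these internal peaks are placed by distance only.

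The TEAD genes differed among themselves. TEAD4 had the highest fold of all 10 genes, 85.1, away from both of its ends. That peak, chr12:3049992-3051152, lay 9316 bp beyond the high end of the gene with a pileup of 314 (280 to 351) and a −log10 q of 512.5, and 98.4% of the 54389 peaks had a lower fold. A further peak with a fold of 20.2 followed 13806 bp beyond the same end. The peak over the low end of TEAD4, chr12:2958625-2961680, was the widest of the 53 at 3056 bp, and had a fold of 45.3 and a pileup of 197 (170 to 227). The counting intervals of the 2 folds, 76.0 to 95.1 and 39.2 to 52.0, did not overlap. A weak peak with a fold of 6.69 lay 3941 bp inside the low end, and the 77.2 kb from there to the high end held none.

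TEAD3 had 7 peaks in a window of 63.5 kb, against a median of 2 for windows of that length. A pair of them had nearly the same fold. The peak over the start, chr6:35496241-35498529, had a fold of 35.2 with its summit 441 bp downstream of the start, and the peak at chr6:35494012-35494735, 2750 bp downstream, also had a fold of 35.2, with pileups of 153 (130 to 179) and 141 (119 to 166). The other 5 peaks had folds from 4.05 to 11.4. Of these, a peak with a fold of 11.0 lay 459 bp from an end of RPL10A, a gene for a protein of the large ribosomal subunit, and the weakest had the start of TULP1, a photoreceptor gene, as its nearest protein-coding start, at 1714 bp.

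TEAD2 had 4 peaks, and its neighbours were close. The peak over both listed starts, chr19:49361463-49363543, had a fold of 19.6. Its summit was 826 bp upstream of the outer start and nearer to a start of DKKL1, at 635 bp. The peak of highest fold, 28.5, lay inside the gene 4947 bp downstream of the inner start (chr19:49355803-49356940). By pileup the order of these peaks was the other way, 78 (61.7 to 97.3) over a control level of 3.04 at the starts and 64 (49.3 to 81.7) over 1.28 inside the gene, and the intervals overlapped. The other 2 peaks, with folds of 6.75 and 8.32, were nearest to the start of CD37, a tetraspanin gene, and the former lay 249 bp from an end of SLC6A16.

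TEAD1, the longest of the genes at 270 kb, had 6 peaks, close to the median of 5 for the longest windows. The strongest covered its low end, chr11:12673787-12675751, with a fold of 17.4, a pileup of 48 (35.4 to 63.6) and a summit 258 bp outside the gene. A peak with a fold of 12.3 lay 19478 bp inside the low end, and the remaining 4 had folds from 5.26 to 6.61. The 129.4 kb up to the high end of the gene held no peak.

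Among the targets, CCN1 had the densest set of peaks. Its window of 43.2 kb held 7 peaks, 16.2 per 100 kb, at the 98.5th percentile of protein-coding genes of all window lengths, which had a median of 2.90 per 100 kb. By the number of peaks alone it was at the 89.2nd percentile. Only 4 of the 7 had CCN1 as the nearest protein-coding start, and the others were nearer to DDAH1, so the density is that of the window. Of the 7, 6 lay in a run of 10.8 kb. The strongest, chr1:85576254-85578316, had a fold of 41.6, a pileup of 153 (130 to 179) and a summit 3597 bp outside the low end of CCN1. That summit lay inside the span of DDAH1, an enzyme gene for the breakdown of dimethylarginine, 1036 bp from a start of that gene. The peak itself covered this DDAH1 start. A pair of weaker peaks with folds of 6.20 and 7.93 also lay inside DDAH1, farther from CCN1. The next, chr1:85579485-85580325, lay between DDAH1 and CCN1 with its summit 910 bp outside the low end of CCN1, a fold of 37.6 and a pileup of 138 (116 to 163), within the interval of the strongest. The peak that covered the low end itself, chr1:85580631-85581607, was weaker, with a fold of 8.99 and a pileup of 26 (17.0 to 38.1).

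CCN2, which is as short as CCN1 and had a window of the same length, had 2 peaks. The peak over its start, chr6:131949983-131951727, had a width of 1745 bp, a fold of 22.6, a pileup of 70 (54.6 to 88.4) and a summit 103 bp downstream of the start. The other lay 13860 bp beyond the 3′ end of the gene, inside CCN2-AS1, with a fold of 9.66. Beyond the window the next peak was 139.8 kb away, the longest such distance of the 10 genes.

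ANKRD1 had the weakest peak at a start. The peak, chr10:90921170-90921644, began 83 bp upstream of the start, was 475 bp wide and had a fold of 5.35, a −log10 q of 7.86 and a pileup of 17 (9.90 to 27.2), and 22.1% of all peaks had a lower fold. The 2 other peaks of ANKRD1 had higher folds and lay away from it. A peak with a fold of 9.73 was 10129 bp upstream of the start, and a peak with a fold of 11.6 was 5645 bp beyond the 3′ end, inside RPP30, a gene for a subunit of ribonuclease P. No peak overlapped the 8.99 kb span of the gene itself.

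AMOTL2 had 6 peaks in a run of 18.5 kb, and 4 of them had a fold over 10. The strongest, chr3:134373159-134375368, had a fold of 40.1 and a pileup of 134 (112 to 159), and its summit lay between the 2 listed starts, 444 bp upstream of the inner and 526 bp downstream of the outer one. A peak inside the gene, chr3:134363599-134364799, 10140 bp downstream of the inner start, had a fold of 34.0 and a pileup of 102 (83.2 to 124), whose interval overlapped that of the strongest. Upstream of the gene, a peak with a fold of 19.1 had its summit 1762 bp from the outer start, and the remaining 3 had folds of 4.82, 6.44 and 12.7.

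**Figure D2:**
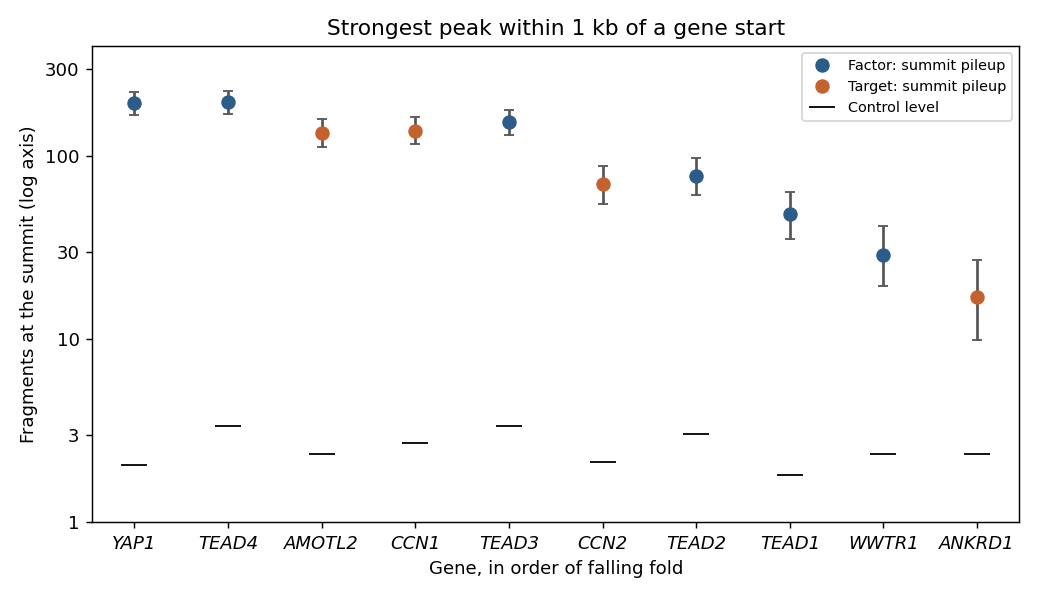
The strongest peak within 1 kb of a start of each gene is shown in order of falling fold, with the number of fragments at the summit (points, blue for factors and orange for targets, with exact Poisson 95% confidence intervals) and the control level (dashes) on a log y axis. The pileups run from 197 at TEAD4 and 194 at YAP1 to 17 at ANKRD1, while the control levels stay between 1.82 and 3.38.

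Ordered by the strongest peak within 1 kb of a start, the folds were 64.0 at YAP1, 45.3 at TEAD4, 40.1 at AMOTL2, 37.6 at CCN1, 35.2 at TEAD3, 22.6 at CCN2, 19.6 at TEAD2, 17.4 at TEAD1, 8.92 at WWTR1 and 5.35 at ANKRD1. The counting interval of the fold of YAP1, 55.3 to 73.6, was above all the others. By pileup YAP1 was not ahead of TEAD4, with 194 (168 to 223) over a control level of 2.05 against 197 (170 to 227) over 3.38. The lead of YAP1 in fold thus goes with its lower control level. The fold intervals of TEAD4, AMOTL2, CCN1 and TEAD3 overlapped from each to the next. So did those of CCN2, TEAD2 and TEAD1, and those of WWTR1 and ANKRD1. Within these 3 sets the intervals do not settle the order, and overlap does not show that the folds are equal. The intervals of TEAD3 and CCN2, and of TEAD1 and WWTR1, did not overlap. These intervals take the control level as exact and cover counting error only, reads from PCR are not independent molecules, and the spread between cultures is unknown.

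The ranges of the factors and the targets overlapped in each of these measures. The median of the highest fold within 20 kb was 31.8 over the 6 factors, with a range of 17.4 to 85.1, and 31.4 over the 4 targets, with a range of 11.6 to 41.6. Over all protein-coding genes it was 21.3, and 31.2 in the class with the longest windows. In the classes of window length of the factors the medians of all genes ran from 20.8 to 31.2, and 4 of the 6 factors, all but WWTR1 and TEAD1, were above that of their class. For the targets the class medians ran from 18.8 to 20.8, and 3 of the 4, all but ANKRD1, were above. The medians also moved with the window, to 67.9 for the factors within 50 kb and to 15.8 for the targets inside the gene span alone. At starts, the medians were 27.4 for factors and 30.1 for targets, and the ranges, 8.92 to 64.0 and 5.35 to 40.1, overlapped almost wholly. Factors had 1.23 to 11.0 peaks per 100 kb of window and targets 4.63 to 16.2, with medians of 4.07 and 8.06. Their windows did not overlap in length, with 61.8 to 310 kb for factors and 43.2 to 60.1 kb for targets, so gene length and class cannot be told apart in that density. Of the 35 peaks at factors 6 (17.1%) had a summit within 1 kb of a start of the listed gene, as did 5 of the 18 at targets (27.8%). Over all peaks, 21.7% had a summit within 1 kb of a start of any protein-coding gene, a wider measure. By that measure the factor peaks 459 bp from RPL10A and 525 bp from CD37 would also count, so the shares are not like for like. Single peaks were also alike in size, with a median fold of 8.28 at factors, 9.70 at targets and 9.63 over all peaks, and a median width of 536, 532 and 519 bp.

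**Figure D3:**
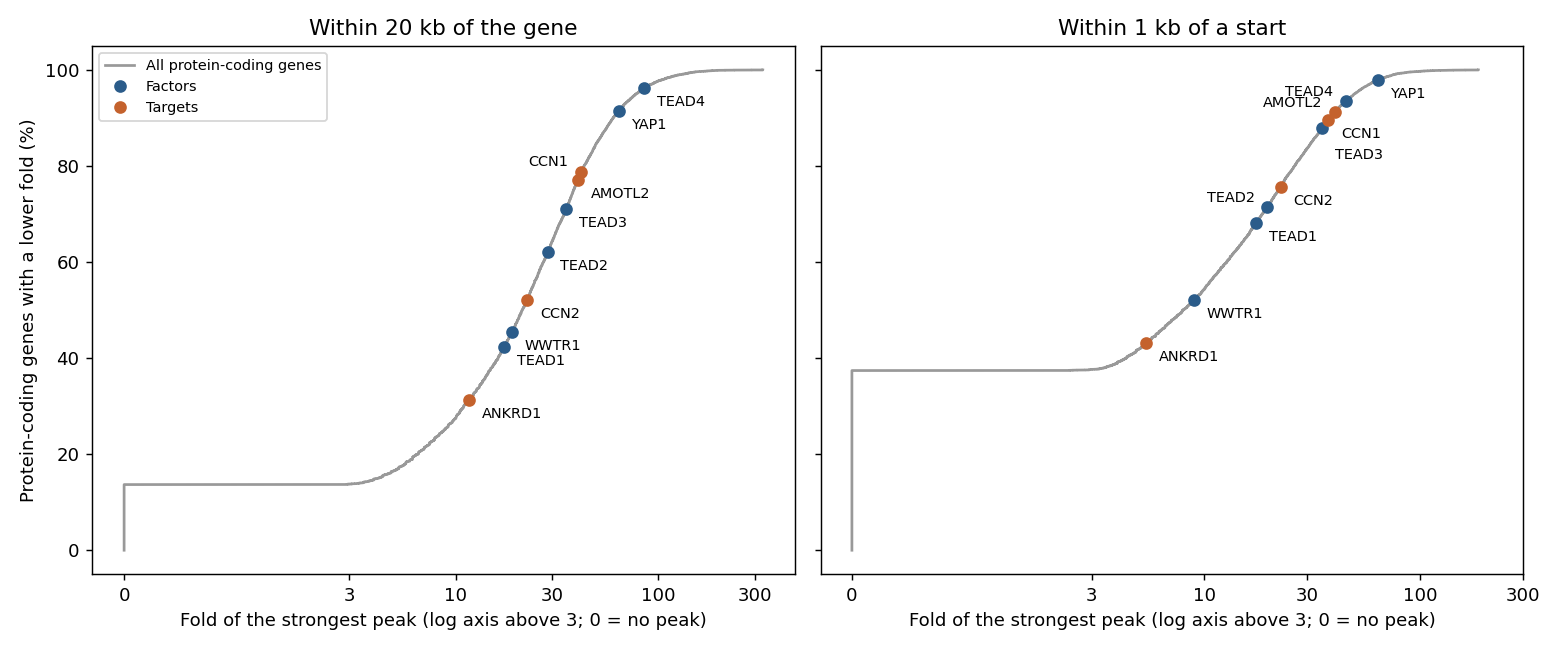
The fold of the strongest peak is plotted on the x axis (log scale above 3, with 0 for genes without a peak) against the percentage of 19970 protein-coding genes with a lower fold, within 20 kb of the gene on the left and within 1 kb of a start on the right. Factors (blue) and targets (orange) are spread along the grey curve of all genes, from ANKRD1 at 31.3% to TEAD4 at 96.2% on the left, and from ANKRD1 at 43.1% to YAP1 at 97.9% on the right.

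**Figure D4:**
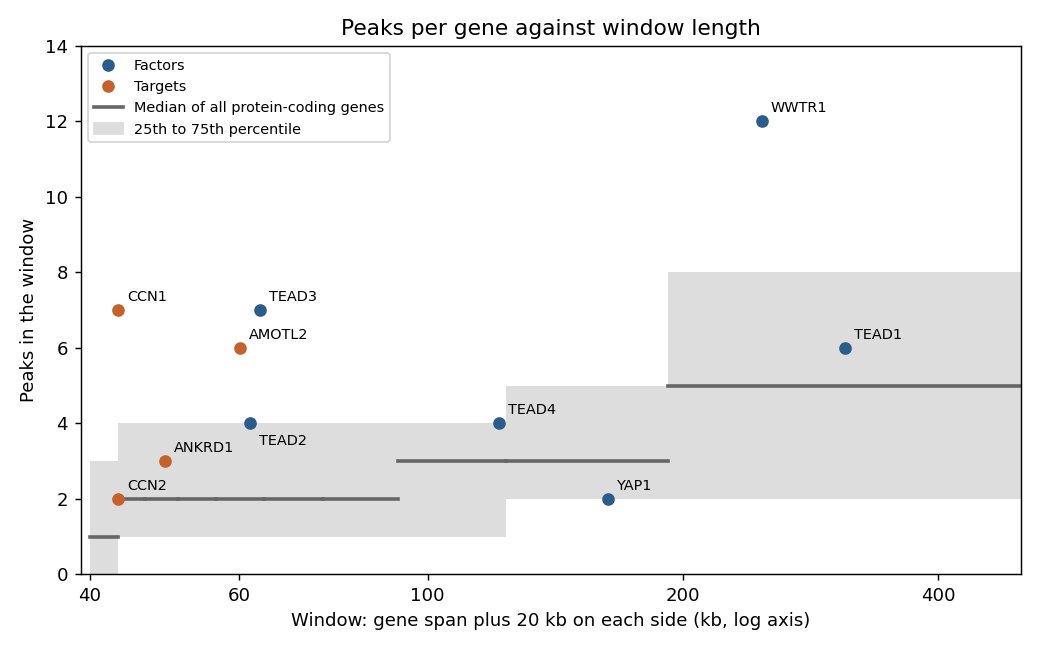
The number of peaks per gene is plotted against the length of the gene with 20 kb on each side (kb, log axis), over the median and the 25th to 75th percentile of all protein-coding genes in 10 classes of window length, the longest of which runs past the axis. WWTR1 with 12 peaks, CCN1 and TEAD3 with 7 and AMOTL2 with 6 lie above the shaded range, while YAP1 with 2 peaks is at its lower edge.

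The 20 kb limit fell in a stretch with few peaks. The outermost peak inside it was 15225 bp from CCN1 with a fold of 4.38, and the first outside were 20.2 kb from AMOTL2 with a fold of 6.24 and 20.9 kb from TEAD3 with a fold of 9.15. Of the 53 peaks, 45 had a start of their own gene as the nearest protein-coding start, where both ends of TEAD1, TEAD4 and CCN1 count as starts. The other 8 were nearer to DDAH1, CD37, DKKL1, RPL10A or TULP1.

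The 250 bases before 7 of the listed starts are printed here because the peaks contrast at them, with a strong peak at YAP1, TEAD3, CCN2 and AMOTL2, weak peaks at ANKRD1 and the inner start of WWTR1, and no peak at its outer start. The sequences are RefSeq, GRCh38.p14, written 5′ to 3′ in the direction of the gene, with GGAA on either strand, the ETS core, in capitals.
YAP1, chr11:102110197-102110446, plus strand: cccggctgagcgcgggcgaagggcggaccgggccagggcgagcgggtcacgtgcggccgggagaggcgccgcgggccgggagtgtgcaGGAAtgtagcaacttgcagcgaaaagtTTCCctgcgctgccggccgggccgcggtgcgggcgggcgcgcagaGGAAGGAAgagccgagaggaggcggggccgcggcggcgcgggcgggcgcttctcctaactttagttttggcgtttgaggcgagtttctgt
TEAD3, chr6:35497080-35497329, minus strand: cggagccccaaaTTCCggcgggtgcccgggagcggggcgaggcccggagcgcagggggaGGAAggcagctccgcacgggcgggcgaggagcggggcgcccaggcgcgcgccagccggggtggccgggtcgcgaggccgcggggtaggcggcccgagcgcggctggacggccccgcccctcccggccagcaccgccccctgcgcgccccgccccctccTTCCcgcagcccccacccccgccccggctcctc
WWTR1 inner start, chr3:149658026-149658275, minus strand: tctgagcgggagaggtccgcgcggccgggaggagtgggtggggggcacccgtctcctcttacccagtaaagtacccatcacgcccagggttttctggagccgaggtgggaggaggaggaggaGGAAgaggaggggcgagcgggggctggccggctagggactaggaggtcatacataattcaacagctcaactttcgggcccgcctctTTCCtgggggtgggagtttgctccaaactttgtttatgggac
WWTR1 outer start, chr3:149703274-149703523, minus strand: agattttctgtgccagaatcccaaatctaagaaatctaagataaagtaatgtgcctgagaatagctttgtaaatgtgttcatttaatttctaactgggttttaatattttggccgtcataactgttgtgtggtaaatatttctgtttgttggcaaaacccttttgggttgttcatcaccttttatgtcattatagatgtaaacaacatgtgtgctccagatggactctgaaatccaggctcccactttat
CCN2, chr6:131951373-131951622, minus strand: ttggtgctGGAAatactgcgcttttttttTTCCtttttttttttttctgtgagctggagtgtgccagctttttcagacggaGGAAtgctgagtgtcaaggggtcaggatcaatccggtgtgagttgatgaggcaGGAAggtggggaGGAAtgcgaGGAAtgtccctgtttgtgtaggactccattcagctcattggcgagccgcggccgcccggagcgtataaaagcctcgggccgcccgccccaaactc
ANKRD1, chr10:90921088-90921337, minus strand: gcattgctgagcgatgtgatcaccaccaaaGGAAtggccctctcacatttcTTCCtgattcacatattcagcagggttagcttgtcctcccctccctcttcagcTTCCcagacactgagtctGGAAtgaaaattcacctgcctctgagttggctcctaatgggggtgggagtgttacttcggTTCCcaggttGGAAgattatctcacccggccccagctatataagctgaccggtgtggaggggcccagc
AMOTL2 inner start, chr3:134374448-134374697, minus strand: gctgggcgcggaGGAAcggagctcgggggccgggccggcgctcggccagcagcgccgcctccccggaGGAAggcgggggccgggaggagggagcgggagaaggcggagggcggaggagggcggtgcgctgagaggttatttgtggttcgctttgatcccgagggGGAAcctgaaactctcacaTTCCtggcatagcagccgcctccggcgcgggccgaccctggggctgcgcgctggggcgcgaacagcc

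Both ETS and TEAD letters occurred in these promoters. The ETS core was found at 9 of the 10 listed starts of the 7 genes, all but the outer start of WWTR1, and in 92.5% of the 22009 promoters of this length of protein-coding genes. The outer start of AMOTL2 had 3 cores although no peak overlapped its 250 bases. In YAP1, 2 adjacent cores lay 90 and 86 bases upstream of the start, with their centres 15.5 and 11.5 bp from the peak summit. The longer ETS site CCGGAA, found in 17.9% of all promoters on either strand, occurred at TEAD3, where it lay 238 bases upstream, and before the inner start of TEAD2. It was not found in the window of YAP1, CCN2, ANKRD1, AMOTL2 or WWTR1. The TEAD site GGAATG, found in 10.5% of all promoters, occurred 3 times in CCN2, at 169, 104 and 95 bases upstream, and each of these matches shares its GGAA with an ETS core, 3 of the 6 cores there. ANKRD1 had 2 TEAD sites, at 220 and 128 bases upstream, and its peak covered 168 of the 250 bases, with its summit 277 bp upstream of the start and so outside them. YAP1 and the inner start of AMOTL2 had 1 TEAD site each, at 162 and 69 bases upstream, and TEAD2, TEAD3 and WWTR1 had none. The AP-1 site TGANTCA, for the FOS and JUN factors, occurred once, in ANKRD1, and in 5.36% of all promoters. These are matches of letters in a short window, not measured sites.

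The Hippo pathway around these genes was described with a list of 24 genes of the kinases LATS1 and LATS2, their activators and adaptors, and the VGLL cofactors that bind TEAD. Of the 24, 22 had a peak within 20 kb, against 86.3% of all protein-coding genes, 20 had one with a fold over 10, against 72.5%, and 20 had one within 1 kb of a start, against 62.6%. Their highest folds had a median of 29.1. Of the 24 genes, 14 were in the 2 classes with the longest windows, the median of the class medians was 26.3, and 14 genes were above the median of their class. The highest were 87.6 at MOB1B, a co-activator of the LATS kinases, 85.6 at VGLL4, a TEAD cofactor that competes with YAP, and 59.6 at AMOT, an angiomotin. Their pileups were 199, 236 and 139 over control levels of 1.28, the lowest of all peaks, 1.77 and 1.35. The order by pileup thus differed, and the strongest peak of STK4, with a fold of 41.0, had a pileup of 206 over 4.05. The peak of MOB1B lay outside the gene, 12696 bp from the nearest listed start, that of VGLL4 1347 bp from a start, and that of AMOT 197 bp from a start, where it was the only peak within 20 kb of the gene. VGLL1 and VGLL3, further TEAD cofactors, had no peak within 20 kb.

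A list of 18 further genes of a widely used YAP and TAZ target signature, of which LATS2 and PTPN14 are also in the pathway list, all had a peak within 20 kb, against 86.3% of all protein-coding genes. A fold over 10 was reached by 17 of them, against 72.5%, and 16 had a peak within 1 kb of a start, against 62.6%. Their highest folds ranged from 6.70 to 173 with a median of 39.5, where the median of the class medians was 23.2, and 14 were above that of their class. The highest were 173 at MYOF, a membrane repair protein, 120.1 at CRIM1, a transmembrane regulator of growth factors, and 68.0 at DOCK5, an activator of small GTPases. This order is by fold. The peak of DOCK5 had a pileup of 196 over a control level of 1.90. The strongest peaks of ASAP1 and AXL, with folds of 61.0 and 56.3, had pileups of 310 over 4.10 and 354 over 5.31. At MYOF the peak had a pileup of 406 and lay inside the gene 145451 bp from its start, while the peak at that start had a fold of 8.62. The peak at CRIM1 lay inside the gene 16482 bp from its nearer end, and that of DOCK5 344 bp from an end. These counts describe the lists and were not tested.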

How the data were processed

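The peaks of 1 anti-Flag library were used. The authors deposited a narrowPeak list with, for each peak, the fold over the input as a ratio and the −log10 p and −log10 q at the summit. The submitters' processing notes name Bowtie2 2.4.1, SAMtools, MACS2 2.2.7.1, deepTools 3.5.0 and the build hg38. The study states a minimum fold for its peaks, and the lowest fold in the list was 2.34. Other settings and the handling of duplicate reads are not given in the sources used here. Duplicates, if kept, would raise pileups. Positions are 1-based.

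Genes were RefSeq spans on GRCh38.p14, and starts were listed for 79.2% of protein-coding genes, the others being represented by both ends. The pileup and control level were solved from fold and −log10 p, taking Poisson counts and adding 1 to both levels in the fold. All 54389 pileups came out within 0.01 of a whole number, with a median of 26 fragments, which sets the precision of a peak. The functions were tested on simulated data. Percentiles give the share of peaks or genes with a lower value. The members and lists were chosen with earlier results of these data known. Named from the lists are the 3 genes of highest fold and the genes without a peak. Of the neighbours with an end nearer to a peak than that of the member, which was so for 32 peaks, those with the nearest protein-coding start or close by a summit are named. Figures were drawn with matplotlib 3.10.9, and values computed with scipy 1.17.1, pandas 2.3.3 and numpy 2.4.6 in Python 3.11.15.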

Additional observations from a re-analysis of the deposited data

How the results depend on the processing

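Of 55 values recomputed under other settings, 50 stayed within 1.5 times the reported count or, for a median fold, within 11.1% of it, and 5 did not. Some of the 50 could not move. The strongest peak of every member had a fold of at least 11.6 and a −log10 q of at least 32.8. Limits of 5 or 10 on fold, or of 10 on −log10 q, thus left both medians and the count of 10 genes within 20 kb fixed. The limit of 1.5 times also took in 75 peaks within 50 kb and 36 with a −log10 q over 10. The 53 peaks became 22 when a fold over 10 was required and 34 when only the gene span was used. The median highest fold of the factors rose from 31.8 to 67.9 with a window of 50 kb, which took in a peak of fold 145 at 49.2 kb from TEAD2 and one of fold 71.8 at 39.4 kb from WWTR1, each nearest to the start of another gene. The median of the targets fell to 15.8 in the gene span only, since the strongest peaks of CCN1 lie outside it and ANKRD1 has none in it. With the longer ETS site in place of the core, 2 of the 10 listed starts had a match. The count of genes with a peak within 1 kb of a start was 9 with a −log10 q over 10, 9 with the ends of each gene in place of the listed starts, which left out WWTR1, and 8 with a fold over 10. With 1 library, no replicate could be left out, and no paired analysis was possible because there was no test. A pileup of 10 fragments, as at the weakest peak of AMOTL2, has a counting interval of 4.80 to 18.4.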

Other observations

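Between protein-coding promoters with a peak summit and those with no peak, the ETS and TEAD letters differed in opposite directions. Of the 22009 promoters, those overlapped by a peak whose summit lay outside them were in neither set. Of the 3115 promoters with a peak summit in the 250 bases before the start, 42.3% held CCGGAA, against 7.69% of the 10355 promoters with no peak there. The TEAD site GGAATG was found in 7.48% of the former and 12.5% of the latter, and the AP-1 site TGANTCA in 4.37% and 7.47%. The promoters with a summit had a median GC content of 68%, against 54% without a peak, and its part in these shares was not tested. Among the members, of the starts with a TEAD site and no CCGGAA, the folds were 64.0 at YAP1, 40.1 at AMOTL2, 22.6 at CCN2 and 5.35 at ANKRD1, and of those with CCGGAA and no TEAD site 35.2 at TEAD3 and 19.6 at TEAD2.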
